A study of Mus musculus with 8 samples.

Results

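Lysosomal enzymes and membrane proteins form a group of 45 genes that was chosen by symbol from the 53278 gene symbols of the deposited count table. The list groups genes by what their proteins do, and it holds 11 proteases, 9 glycosidases, 5 sulfatases and sulfamidases, 8 proteins of lipid breakdown and transport, 8 membrane proteins and 4 others. All 45 were found in the table and all 45 had enough counts to be tested. Each was compared between the forebrains of mice with and without microglia, and the share of the control level that was left is given for each.

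Bulk RNA of the whole forebrain came from 8 C57BL/6J males, bought from a commercial breeder and used at 10 to 20 weeks of age. The 4 depleted mice ate food with PLX3397, a CSF1R kinase inhibitor that removes microglia, over a span of 9 days, and food without the drug went to 4 control mice for the same time. No transgene is named for either group, so depletion rests on the drug alone, which also reaches other CSF1R-dependent macrophages and can act on related kinases. The series title concerns how microglia regulate blood flow through the enzyme CD39, and the lysosome is not among its stated subjects.

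Lysosomes are acidic organelles in which hydrolases take apart proteins, glycans, nucleic acids and lipids delivered by endocytosis, phagocytosis and autophagy. Nearly every cell makes them, but macrophages, which live by phagocytosis, carry a larger set, including proteins that other cells of the brain barely produce. The transcription factor TFEB and its relatives drive many lysosomal genes through a short palindrome, the E-box CACGTG, which is part of the CLEAR element. In macrophages the factor PU.1 binds sites with the core GAGGAA. Inherited loss of single lysosomal proteins causes storage diseases, many of them with neurodegeneration.

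Upstream sequence is shown for 4 members with different outcomes in the test, which need not be typical of the list in their motifs. Ctss (cathepsin S) and Cd68 fell the furthest among the members that passed the test, Ctsd (cathepsin D) lay lower without passing, and Lamp1, a main protein of the lysosomal membrane, had overlapping groups. Each run holds the 250 bases before the RefSeq start, written 5' to 3' along the gene's strand (GRCm38.p6, the same build as mm10). Capitals mark the E-box CACGTG or the PU.1 core GAGGAA, read on both strands. The runs cover chr3:95526536-95526785 (plus strand) for Ctss, chr11:69666171-69666420 (minus strand) for Cd68, chr7:142387828-142388077 (minus strand) for Ctsd and chr8:13158911-13159160 (plus strand) for Lamp1.
Ctss: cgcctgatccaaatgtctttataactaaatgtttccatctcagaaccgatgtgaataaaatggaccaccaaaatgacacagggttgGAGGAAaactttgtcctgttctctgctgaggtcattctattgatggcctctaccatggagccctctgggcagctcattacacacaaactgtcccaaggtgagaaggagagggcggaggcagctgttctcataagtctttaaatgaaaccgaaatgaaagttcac
Cd68: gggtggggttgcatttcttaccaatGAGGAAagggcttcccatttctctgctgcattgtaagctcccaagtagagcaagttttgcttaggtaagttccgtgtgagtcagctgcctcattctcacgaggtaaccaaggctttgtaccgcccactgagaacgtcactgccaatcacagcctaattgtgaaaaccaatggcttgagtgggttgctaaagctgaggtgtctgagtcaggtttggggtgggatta
Ctsd: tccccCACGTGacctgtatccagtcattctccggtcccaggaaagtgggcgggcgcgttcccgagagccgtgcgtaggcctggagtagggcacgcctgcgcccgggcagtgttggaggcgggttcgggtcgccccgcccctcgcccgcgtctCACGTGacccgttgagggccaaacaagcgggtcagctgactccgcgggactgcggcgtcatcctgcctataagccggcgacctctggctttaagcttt
Lamp1: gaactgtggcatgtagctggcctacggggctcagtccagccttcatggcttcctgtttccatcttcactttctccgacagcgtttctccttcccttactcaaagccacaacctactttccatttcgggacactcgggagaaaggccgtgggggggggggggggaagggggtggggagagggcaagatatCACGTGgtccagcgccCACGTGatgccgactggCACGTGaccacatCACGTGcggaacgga

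Lamp1 carried 4 E-boxes, at positions -61, -45, -28 and -15 from the start, more than any other member, and Ctsd carried 2, at -245 and -98. Ctss and Cd68 held none, and each had 1 PU.1 core upstream, at -164 and -225. Promoter windows, which run from 250 bases before to 50 bases after the start, were at hand for 40 of the 45 members (46 windows). Of these windows 30.4% held an E-box, against 7.15% of all 32851 windows, and 10.9% held the longer palindrome TCACGTGA, which contains the E-box, against 0.974%. The PU.1 core lay in 43.5% of member windows and in 28.3% of all windows, and its longer form GAGGAAGT in 8.70% against 3.20%. The core was found in 20 members, some that passed the test and others, such as Psap, Smpd1 and Lamp2, that did not. Ctss held that longer form on the other strand, from -2 across its start, and Cd68 a further core at 29. The printed runs show neither of these whole. Member windows were also richer in G and C (median 57.8% against 52.7%) and in the pair CG (median count 14 against 7), which the E-box contains. The part of this composition in the E-box shares was not tested. These matches describe letters in a window and show no binding.

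Libraries held between 48455538 and 68406688 counts, of which the 45 members took between 0.648% and 0.722%. Levels are given in CPM, the usual unit of counts scaled to library size. The depletion was visible in all 15 microglial marker genes, which fell with a median log2 fold change of -5.41. Csf1r stood at 51.6 to 65.0 CPM in control and 0.386 to 1.69 CPM in depleted mice. The groups were far apart. Aif1, another of the 15 markers, kept a larger share than Csf1r, with 184 to 238 raw counts in control and 42 to 68 in depleted mice. Border-associated macrophage markers summed to 12.6 to 17.7 CPM in control and 3.17 to 5.96 CPM in depleted mice, and 3 of the 5 tested fell. Cd163, of the same list, went the other way, with 24 to 74 raw counts in control and 40 to 226 in depleted mice. It did not pass. Markers of monocytes and neutrophils summed to less than 1 CPM in every mouse. In bulk samples fewer cells of a type and less RNA per cell cannot be told apart.

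By edgeR with a threshold of 0.05 on the adjusted p, 4 of the 45 members fell and 0 rose (edgeR's quasi-likelihood test, Benjamini-Hochberg adjustment over all 20140 genes tested). The 4 were Ctss, Cd68, Grn and Man2b1. Over all genes tested, 1.11% were lower and 0.0546% higher by the same rule. At an unadjusted p under 0.05, 9 members were lower and 3 higher, where 5.60% and 5.38% of all genes were. DESeq2 called 6 members lower and 0 higher, where it called 1.72% and 0.586% of all genes, and limma-voom called 4 lower and 0 higher, where it called 1.12% and 0.0447%.

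Only Ctss lost most of its transcript. The median log2 fold change of the members was -0.04, which corresponds to 97.6% of the control level, and the median over all genes tested was -3.8e-04. Of the members 30 had a negative fold change, where 50.1% of all genes did. The 41 members that did not pass lay between 66.3% (Ctsh) and 114% (Tfeb) of the control level. The 95% interval of the model stayed within a change of 33% in either direction for 40 of the 45 members, and within 20% for 23.

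**Figure D1:**
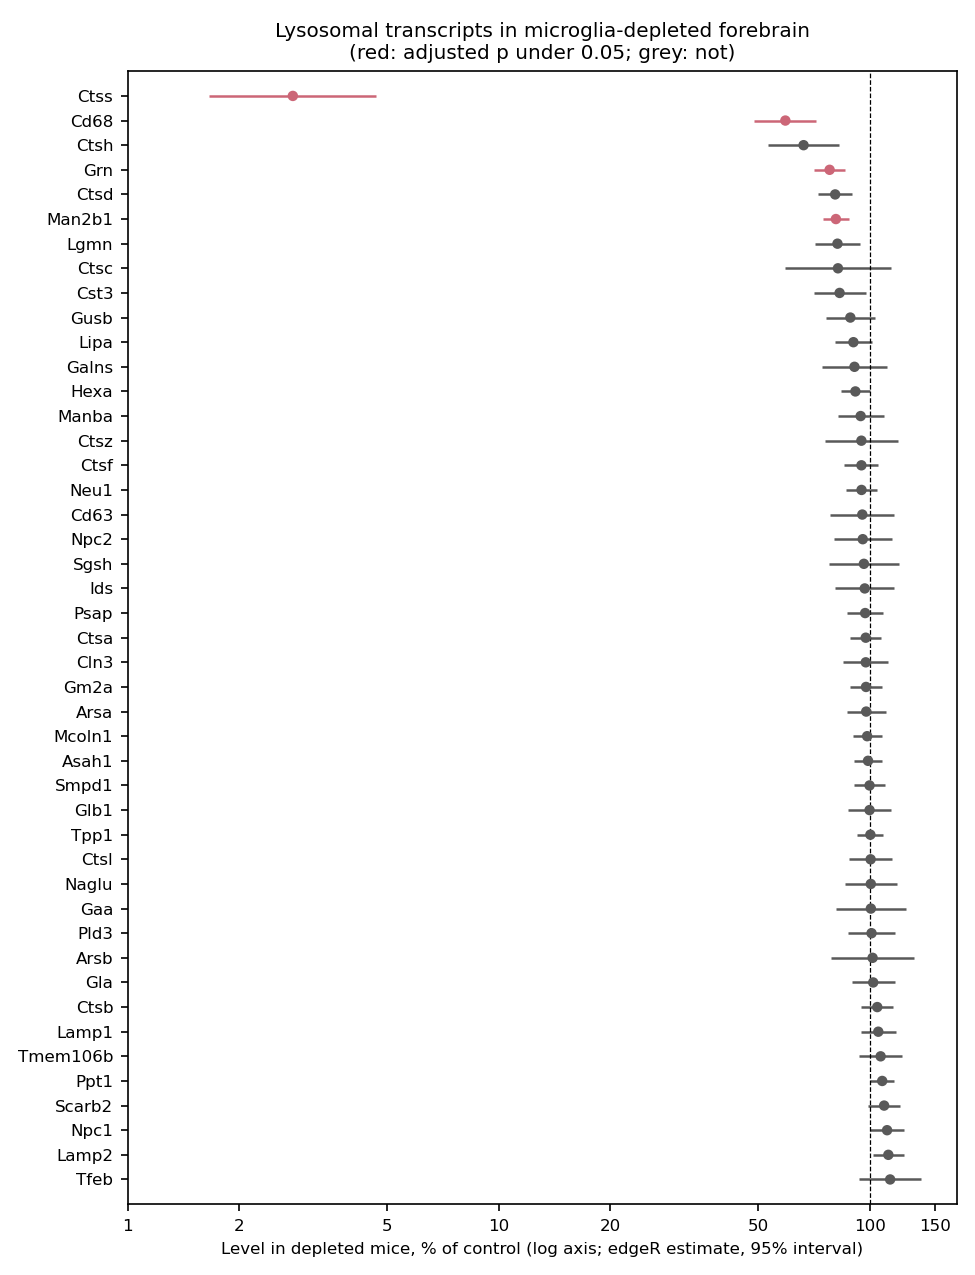
Level of each of the 45 transcripts in depleted mice as a percentage of the control level on a log axis, with the edgeR estimate as a point and its 95% interval as a line, red where the adjusted p was under 0.05. Ctss stands alone at 2.78%, Cd68 follows at 59.2%, and the members that did not pass lie between 66.3% and 114%.

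Proteases showed the widest range. Ctss encodes cathepsin S, a cysteine protease that keeps its activity at neutral pH and trims the invariant chain of MHC class II in antigen-presenting cells. Its gene lies on chromosome 3, 95526786 to 95556403 (mm10), and shares no exon bases with another annotated gene. Its level was 34.3, 42.6, 36.7 and 31.0 CPM in control mice 1 to 4 and 0.689, 0.366, 1.52 and 1.38 CPM in depleted mice 1 to 4. Every depleted mouse was far below every control mouse. The log2 fold change was -5.17 (SE 0.33, adjusted p = 2.82e-05 in edgeR), which leaves 2.78% of the control level (95% interval 1.66% to 4.68%). The call held in all 18 alternative analyses, with an adjusted p of at most 0.00237.

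What was left of Ctss differed between the depleted mice. Depleted mouse 2 kept 1.01% of the control mean and depleted mouse 1 kept 1.91%, whereas depleted mice 3 and 4 kept 4.19% and 3.81%. The complement gene C1qa, a microglial marker, stood at 0.624%, 1.18%, 3.93% and 3.55% in depleted mice 2, 1, 3 and 4, so mice 1 and 2 were the lower pair for both genes. Csf1r stood at 0.659% and 1.95% in depleted mice 2 and 1 and at 2.83% and 2.88% in mice 3 and 4. Not every microglial marker had this order. Tmem119 kept 3.60%, 5.86%, 4.53% and 5.66% in depleted mice 1 to 4, so mouse 2 kept the most.

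Ctsd and Ctsh came next among the proteases. Cathepsin D is the main aspartic protease of the lysosome, and its transcript stood at 209, 208, 212 and 186 CPM in control mice 1 to 4 and at 154, 176, 159 and 168 CPM in depleted mice. The groups did not overlap, but the fold change did not pass over all genes in edgeR (-0.31, SE 0.07, adjusted p = 0.0811). DESeq2 called it lower at an adjusted p of 0.0012. Groups without overlap were found for 6 members on the lower side, against 3.50% of all genes, and for 1 on the higher side, against 2.28%. Ctsd shares exon bases with the annotated gene Gm49369 on the same strand, so some of its reads may belong to that partner.

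Ctsh encodes cathepsin H, an aminopeptidase. It stood at 9.94, 9.25, 10.5 and 6.95 CPM in control mice 1 to 4 and at 5.13, 6.20, 6.20 and 6.77 CPM in depleted mice 1 to 4. Control mouse 4 lay just above the highest depleted mouse and apart from the other controls. The log2 fold change was -0.59 (SE 0.14, adjusted p = 0.127 in edgeR). Without control mouse 4 it was -0.70 (adjusted p = 0.0184).

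Legumain (Lgmn), an asparaginyl endopeptidase that activates cathepsins, was at 81.9% of the control level (95% interval 71.0% to 94.4%, adjusted p = 0.297 in edgeR), and its groups overlapped. The dipeptidyl peptidase cathepsin C (Ctsc) was at 82.1%, with an interval from 58.9% to 114%. The remaining 6 lay close to the control level. Cathepsin B (Ctsb), the most abundant cysteine cathepsin here, was at 105% (94.9% to 116%), cathepsin L (Ctsl) at 101% (88.1% to 115%) and the tripeptidyl peptidase Tpp1, whose loss causes a form of Batten disease, at 100.4% (92.6% to 109%). The carboxypeptidase genes Ctsa and Ctsz and the cysteine protease gene Ctsf had log2 fold changes of -0.04, -0.07 and -0.07. Members of the cathepsin family thus ranged from 2.78% to 105% of control in the same libraries.

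Dividing by exon length sets the levels of different genes side by side, as CPM per kilobase of all annotated exons. On that scale Ctss stood at 26.6 ± 3.60 (SD, n = 4) in control mice, above Ctsl at 12.7 ± 1.18 and below Ctsb at 83.8 ± 3.28. In depleted mice Ctss stood at 0.727 ± 0.405. The ratio of Ctss to Ctsl per exon length was 178% to 248% in control and 1.92% to 8.81% in depleted mice. Order and ratio depend on the lengths used, 1358 bases for Ctss and 6489 bases for Ctsl. All annotated exons of a gene were joined, which can exceed the length of the transcript made. In plain CPM the control means had the other order, 36.1 for Ctss and 82.7 for Ctsl. Ctsl shares exon bases with Gm49230 on the same strand and Ctsb with Fdft1 on the other, so their levels are uncertain to that extent.

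**Figure D2:**
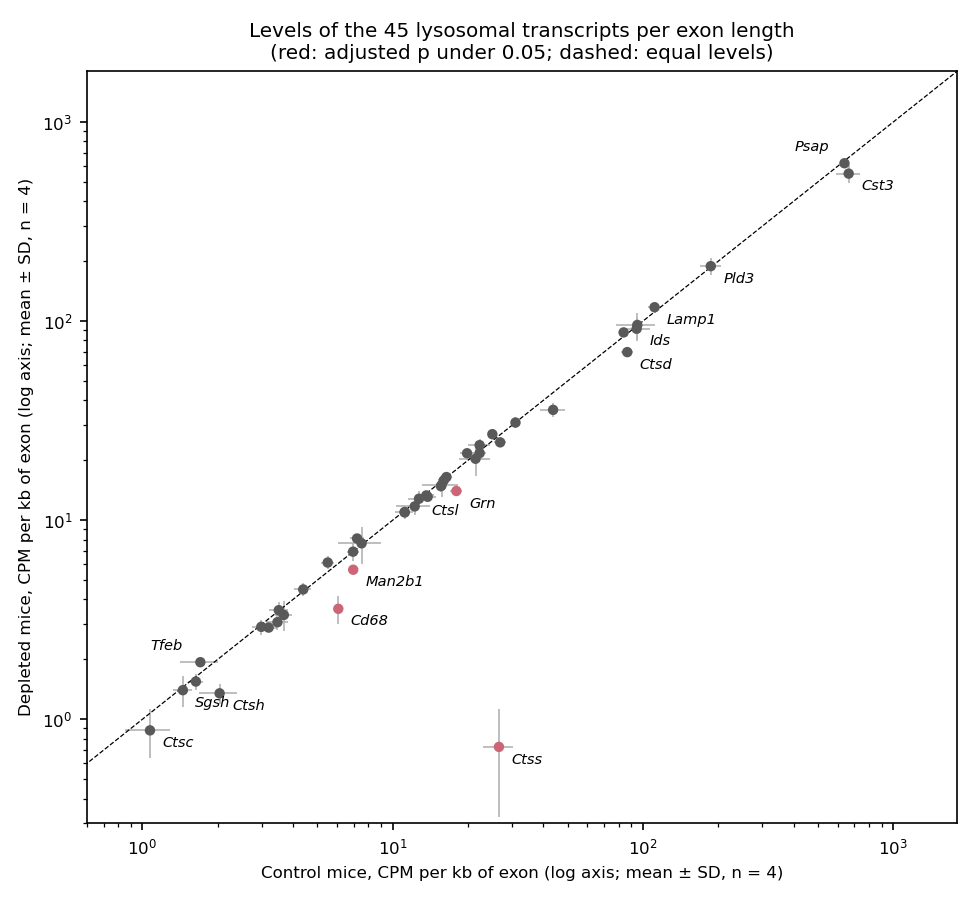
Mean level of each of the 45 transcripts in CPM per kilobase of exon, control mice on the horizontal and depleted mice on the vertical log axis, with SD over 4 mice as bars, red where the adjusted p was under 0.05 and the dashed line marking equal levels. Ctss falls from 26.6 to 0.727, while most others lie on or near the line.

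Cst3 and Grn encode secreted proteins that act on or through the lysosome. Cystatin C (Cst3), an inhibitor of cysteine cathepsins, was the most abundant member per exon length, at 664 ± 73.3 CPM per kilobase in control mice. Its CPM values were 912, 888, 857 and 706 in control and 619, 671, 717 and 784 in depleted mice 1 to 4. The groups overlapped, since depleted mice 3 and 4 lay above control mouse 4. At 83.0% of the control level (95% interval 70.6% to 97.6%, adjusted p = 0.390 in edgeR) Cst3 did not pass.

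Progranulin (Grn) is a growth factor precursor that lysosomes cleave into granulins, and its loss causes frontotemporal dementia or a storage disease in humans. The gene lies on chromosome 11, 102430315 to 102437048 (mm10), and shares 68 exon bases with Fam171a2 on the opposite strand. Its level was 63.7, 66.4, 58.4 and 61.3 CPM in control mice 1 to 4 and 47.6, 52.8, 46.8 and 47.6 CPM in depleted mice 1 to 4. The groups did not overlap, and depleted mouse 2 lay above the other depleted mice. Grn fell to 78.0% of the control level (95% interval 70.8% to 85.9%, log2 fold change -0.36, SE 0.06, adjusted p = 0.0208 in edgeR). The call held in 10 of 18 alternatives and was lost, among others, without control mouse 1 or 2 or depleted mouse 1, 3 or 4 (adjusted p up to 0.0927).

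Among the 9 glycosidases 1 fell and 0 rose. Man2b1 encodes lysosomal alpha-mannosidase, which trims the sugar chains of glycoproteins, and lies on chromosome 8, 85083270 to 85098282 (mm10). It stood at 53.1, 58.3, 55.4 and 56.7 CPM in control and 44.3, 47.0, 45.5 and 44.4 CPM in depleted mice 1 to 4. The groups were apart, with little spread inside either group. The level left was 81.1% (95% interval 74.9% to 87.8%, log2 fold change -0.30, SE 0.05, adjusted p = 0.0188 in edgeR). This call held in 9 of 18 alternatives. It was lost, among others, without control mouse 2, 3 or 4 and without depleted mouse 1, 3 or 4 (adjusted p up to 0.0907 there and up to 0.155 in all alternatives), while the log2 fold change stayed between -0.33 and -0.28 in all alternatives.

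The other glycosidases stood between 88.7% and 102% of the control level. Hexa, which acts in the breakdown of GM2 ganglioside, was at 91.5% (83.8% to 99.9%, adjusted p = 0.454 in edgeR). Beta-galactosidase (Glb1) was at 99.9%, beta-mannosidase (Manba) at 94.5%, sialidase (Neu1) at 95.1%, alpha-galactosidase (Gla) at 102% and beta-glucuronidase (Gusb) at 88.7%. Naglu, which removes N-acetylglucosamine from heparan sulfate, was at 100.7%. Gaa, the acid glucosidase that breaks down glycogen, was the most abundant of them per exon length. It stood at 400.5, 499, 543 and 375 CPM in control and 399.7, 507, 525 and 399.7 CPM in depleted mice 1 to 4, and its groups overlapped (100.7% of control, 80.9% to 125%). Mice 2 and 3 of either group were the high ones.

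The high mice for Gaa were those with reads of Hcrt. This orexin precursor gene of hypothalamic neurons had 1249 to 2081 counts in mice 2 and 3 of both groups and 4 to 12 counts in the other mice. The match did not extend to all hypothalamic markers: Oxt, the oxytocin gene, had 2016 counts in depleted mouse 4, where Gaa was low, and the summed markers there reached 57.6 CPM against 4.90 to 10.4 CPM in the other mice without Hcrt. Across that split of 4 against 4 mice Gaa was at 499 to 543 CPM with Hcrt and 375 to 400.5 CPM without, a ratio of means of 1.32. Naglu (9.54 to 10.5 against 8.16 to 9.38 CPM) also lay higher and Mcoln1 (79.3 to 81.5 against 83.4 to 89.6 CPM) lower without overlap, where 2.31% of all genes were higher and 2.42% lower in this way. With that split as a block the SE of the diet's log2 fold change for Gaa was 0.063 instead of 0.14. The split and the genes were picked after the values were seen, and the part of hypothalamic tissue in these levels was not tested.

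None of the 5 sulfatases and sulfamidases passed in edgeR, and 0 had an unadjusted p under 0.05 (DESeq2 and limma-voom called 0 as well). Ids, the iduronate sulfatase of heparan and dermatan sulfate breakdown, was the most abundant per exon length. Its CPM values were 405, 475, 487 and 560 in control and 512, 527, 421 and 409 in depleted mice 1 to 4, with wide and overlapping groups (97.0% of control, 80.7% to 117%). Arylsulfatase A (Arsa), which acts on sulfatide, was at 97.9%, Arsb at 102%, Galns at 91.0% and Sgsh at 96.5%. The interval of Arsb, from 78.5% to 132%, was the widest of the 5.

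Lipid-handling members stayed near their control level. Prosaposin (Psap), the precursor of the activator proteins for sphingolipid hydrolases, was the second most abundant member per exon length, at 639 ± 15.1 CPM per kilobase in control mice. Its CPM values were 1801, 1758, 1699.9 and 1756 in control and 1749.9, 1749.7, 1624 and 1697 in depleted mice 1 to 4. The groups overlapped, and 97.2% of the control level was left (87.1% to 109%). Ppt1, the palmitoyl-protein thioesterase, was the 1 member whose depleted mice all lay above the controls. It stood at 91.3, 89.3, 91.2 and 96.0 CPM in control and 99.7, 101, 99.6 and 97.5 CPM in depleted mice 1 to 4, which is 108% of control and did not pass (adjusted p = 0.432 in edgeR).

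Both cholesterol exporters were measured as well: the membrane protein Npc1 was at 111% (SE of the log2 fold change 0.07, adjusted p = 0.455 in edgeR) and its soluble partner Npc2 at 95.8% (79.9% to 115%). The acid lipase Lipa was at 90.4% (80.6% to 101%). The ganglioside activator Gm2a was at 97.7%, acid ceramidase (Asah1) at 99.0% and acid sphingomyelinase (Smpd1) at 99.9%. For Asah1 and Smpd1 the intervals ran from 90.6% to 108% and from 90.9% to 109.8%.

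Membrane proteins split into Cd68 and the rest. CD68 is a heavily glycosylated relative of the LAMP proteins that is used as a stain for macrophage lysosomes. The gene lies on chromosome 11, 69664213 to 69666153 (mm10), and shares no exon bases with another annotated gene. It stood at 7.45, 7.76, 7.94 and 7.34 CPM in control and 3.88, 3.90, 5.32 and 4.94 CPM in depleted mice 1 to 4. All depleted mice lay below all controls, with depleted mice 1 and 2 the lower pair, as for Ctss. Cd68 fell to 59.2% of the control level (95% interval 48.9% to 71.8%, log2 fold change -0.76, SE 0.12, adjusted p = 0.0146 in edgeR). The call held in 15 of 18 alternatives and was lost, among others, without control mouse 2 or 3 (adjusted p = 0.0599 and 0.0654).

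The intervals of Cd68 and Ctss do not meet. In the depleted mice 1015 counts of Cd68 were read against 228 of Ctss, whereas control mice held 1614 and 7614. The border-associated macrophage markers above, Cd163 included, summed to at most 5.96 CPM in depleted mice. Their part in the remaining Cd68 was not tested.

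Lamp1 was the most abundant membrane protein per exon length. It stood at 303, 297, 316 and 276 CPM in control and 291, 337, 322 and 307 CPM in depleted mice 1 to 4, with overlapping groups and 105% of the control level left (94.6% to 118%). Lamp2 was at 112% (102% to 124%) with an unadjusted p of 0.0234, which was lost on adjustment (adjusted p = 0.372 in edgeR). The glucocerebrosidase receptor Scarb2 was at 109%, Tmem106b, a modifier of frontotemporal dementia, at 107%, the calcium channel Mcoln1 at 98.4%, Cln3 at 97.6% and the tetraspanin Cd63 at 95.5%. None of these passed.

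The last pair of members has other roles. Pld3, a nuclease of the phospholipase D family that neurons express strongly, stood at 514, 561, 498 and 612 CPM in control and 611, 563, 487 and 548 CPM in depleted mice 1 to 4. The groups overlapped and 101% was left (87.5% to 117%). Tfeb, the transcription factor, was at 114% (93.5% to 138%, adjusted p = 0.649 in edgeR), with control mouse 4 the lowest of all mice.

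**Figure D3:**
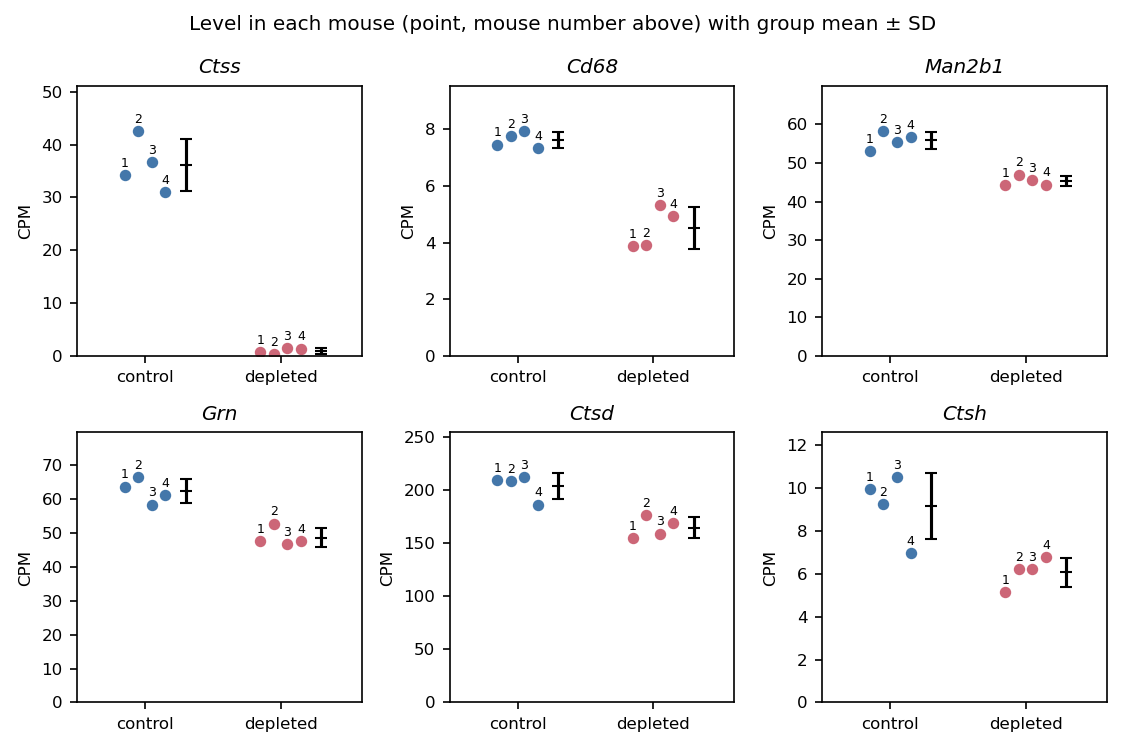
CPM of 6 members in every mouse, with control mice in blue and depleted mice in red, the mouse number above each point and the group mean ± SD beside it; each vertical axis starts at 0. The groups are apart in all 6 panels, by far for Ctss and narrowly for Ctsh, where control mouse 4 at 6.95 CPM lies next to depleted mouse 4 at 6.77 CPM.

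Shares and amounts gave different orders. The group means differed most in CPM for Cst3 and Psap, by -143 and -48.5 CPM beside control SDs of 92.9 and 41.4 CPM, and neither passed. Ctsd followed at -39.3 CPM, with 80.7% left, and Ctss at -35.1 CPM, with 2.78% left. Among the members with lower means, Lgmn at -18.4 CPM and Ids at -14.5 CPM came next and did not pass. Ctsb and Lamp1 differed the other way, by 24.4 and 16.3 CPM, and did not pass either. Among the other members that fell the difference was -13.7 CPM for Grn, -10.6 CPM for Man2b1 and -3.11 CPM for Cd68. The sum over all 45 members averaged 6997 ± 119 CPM with microglia and 6735 ± 145 CPM without, and the groups overlapped (6828 to 7104 CPM against 6622 to 6948 CPM).

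Members with an E-box in the promoter window can be set beside those without. The 14 with an E-box, among them Ctsd, Ctsl, Lamp1 and Mcoln1, had log2 fold changes between -0.31 and 0.08 (median -0.03), and 0 of them passed in edgeR. The 26 without one had a median of -0.06, and all 4 members that fell were among them, where 1.11% of all genes fell. These counts hold for the main fit only. Ctsd, which has an E-box, was called lower in DESeq2. Ctsd and Lgmn, both with an E-box, were called lower in the fit with an oligodendrocyte score described below. The other 5 members had no promoter entry. This is a description of 40 genes in the same 8 libraries and was not tested.

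Beyond the members, 117 other lysosomal genes in 4 lists were counted, of which 114 had enough counts. Of these 6 fell and 0 rose, where 1.11% of all genes were lower and 0.0546% higher, and the median log2 fold change was -0.02. Among 36 tested hydrolases 2 fell: the exonuclease gene Pld4 (5.61 ± 0.711 to 0.154 ± 0.0416 CPM, 2.83% left, adjusted p = 2.06e-06 in edgeR) and the lysozyme gene Lyz2 (3.95 ± 1.41 to 0.465 ± 0.174 CPM, 11.9% left, adjusted p = 8.63e-04). Lyz2 has a close paralog, so its reads are uncertain. Pld4 and its relative Pld3 lay at opposite ends, at 2.83% and 101% of control.

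Among 35 membrane proteins 4 fell. The immune lysosomal protein gene Laptm5 went from 20.8 ± 2.96 to 0.731 ± 0.210 CPM (3.56% left, adjusted p = 2.18e-06 in edgeR). The phagosomal metal transporter gene Slc11a1 kept 10.2% (log2 fold change -3.29, adjusted p = 0.0137 in edgeR). Without depleted mouse 1 its log2 fold change was -3.09 and the call was lost (adjusted p = 0.0552). The peptide and histidine transporter gene Slc15a3 kept 12.2% and Cd300a kept 26.2%. Cd300a encodes an inhibitory receptor of the cell surface, yet it is counted in this list of 35 and among the 6 genes that fell.

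The proton pump that acidifies lysosomes and the regulators of lysosomal genes showed no call in edgeR. Of 18 pump subunits 0 passed and 0 had an unadjusted p under 0.05. Atp6v0a2 and Atp6v1h had the smallest p, at 109% and 106% of control, and the log2 fold changes of all subunits lay between -0.11 and 0.12. Of 25 genes of enzyme sorting and lysosomal gene regulation 0 passed and 1 had an unadjusted p under 0.05. That gene, Rragd, which encodes a GTPase of the mTORC1 pathway, stood at 73.9, 121, 103 and 118 CPM in control and 177, 107, 167 and 151 CPM in depleted mice 1 to 4 (145% of control, adjusted p = 0.332). Flcn, a partner of that GTPase, was at 92.0% (adjusted p = 0.459). DESeq2 and limma-voom called 0 genes of either list as well.

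**Figure D4:**
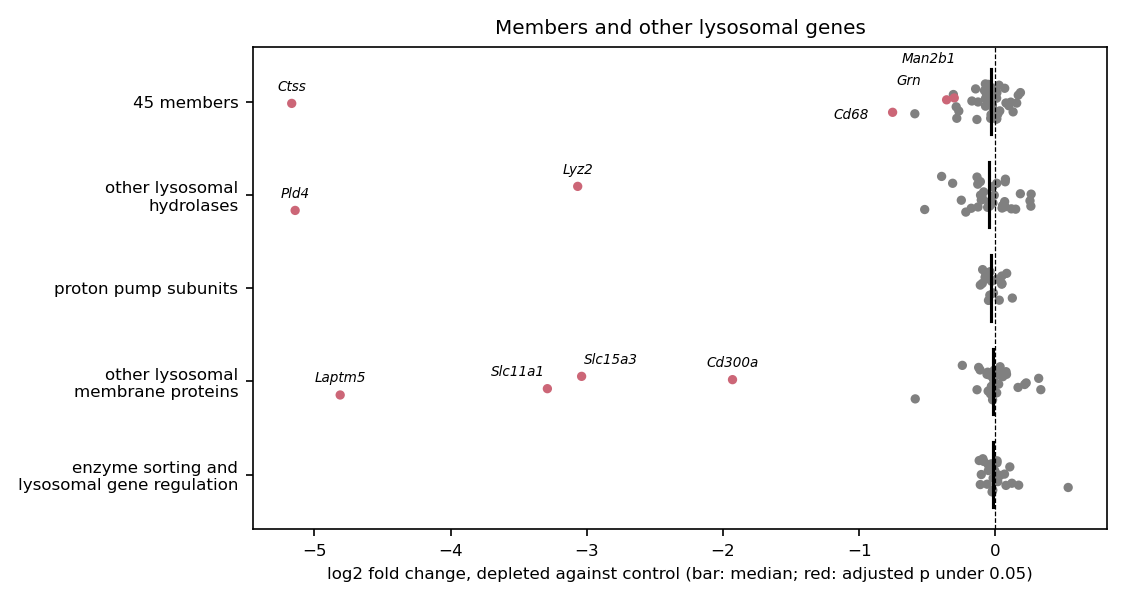
log2 fold change of the 45 members and of the 114 other lysosomal genes tested, by list, each point a gene, red where the adjusted p was under 0.05 and a black bar at the median. The 6 named genes of the hydrolase and membrane lists and Ctss lie far to the left of their lists, while pump subunits stay between -0.11 and 0.12.

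Tissue makeup differed between the mice and moved with some members. Striatal marker genes summed to 344 to 1703 CPM in control and 847 to 3328 CPM in depleted mice, and all 10 had a positive fold change. Oligodendrocyte markers summed to 4384 to 8485 CPM in control and 6871 to 10222 CPM in depleted mice, and control mouse 4 was the lowest of all. Control mouse 4 was also the lowest of its group for 26 of the 45 members, and depleted mouse 1 for 25. Of 7 markers of oligodendrocyte precursors 3 fell: Pdgfra to 50.7%, Cspg4 to 55.1% and Matn4 to 49.8% of the control level (adjusted p = 0.00304, 3.14e-04 and 0.00141 in edgeR). Gpr17, of the same list, went the other way, with 2405 to 3124 raw counts in control and 2844 to 5458 in depleted mice. By the adjusted p 0 of the 7 rose. The part of oligodendrocyte precursors in the members' levels was not tested. With the striatal score as a covariate Ctss and Cd68 still passed, while Grn (adjusted p = 0.308 in edgeR) and Man2b1 (adjusted p = 0.136) did not, where 0.824% of all genes were lower in that fit. With the oligodendrocyte score as a covariate 7 members passed, namely Ctss, Cd68, Ctsd, Ctsh, Lgmn, Cst3 and Npc2, all lower, where 1.65% of all genes were lower in that fit. There Grn (adjusted p = 0.0635) and Man2b1 (adjusted p = 0.0658) did not pass. Since the scores themselves differed between the groups, the diet and the tissue makeup cannot be told apart for the smaller falls.

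**Figure D5:**
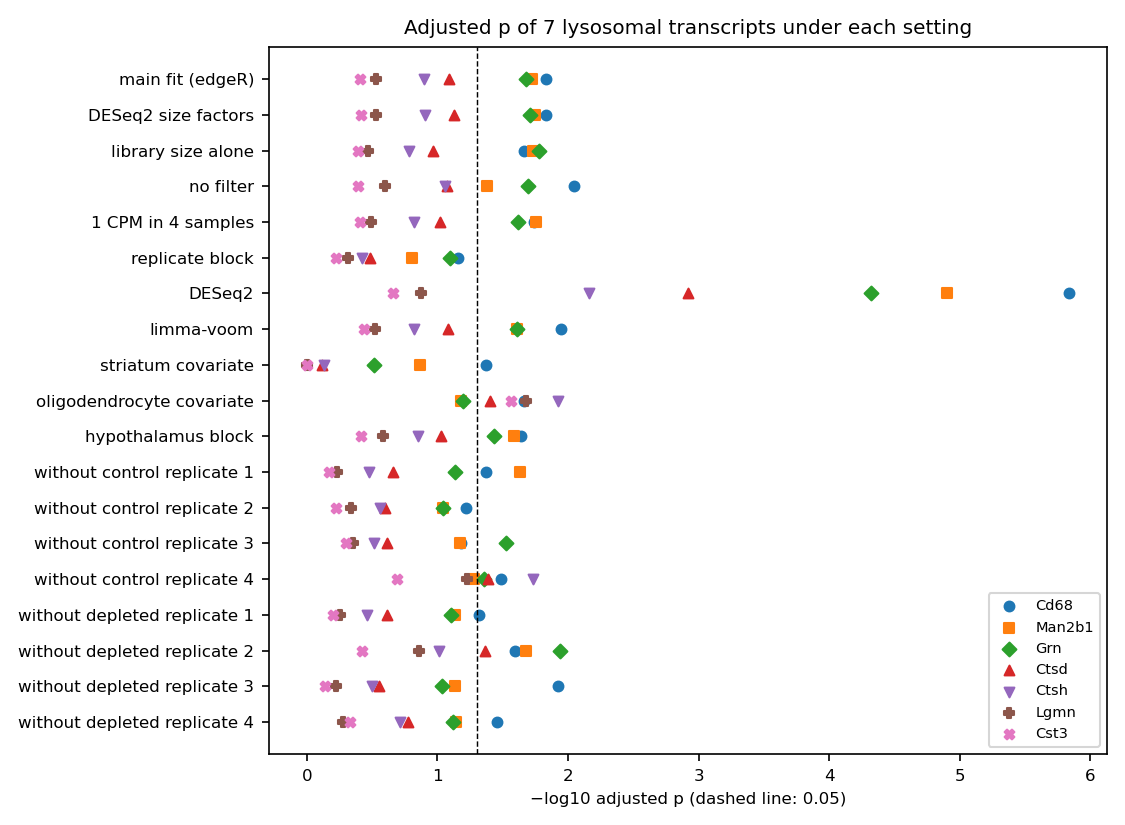
Adjusted p, as −log10, of 7 members (Ctss, which passed everywhere, is left out) in the fit reported here and in 18 alternatives, the dashed line marking 0.05. Cd68 lies right of the line in 15 alternatives, Grn in 10, Man2b1 in 9, Ctsd in 4 and Ctsh in 3.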

How the data were processed

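Whole-forebrain RNA of 4 control and 4 PLX3397-fed mice was compared, with groups taken from sample titles. The authors deposited raw counts, 1 whole number for each symbol and mouse. The submitters' processing notes name the build mm10, the aligner STAR, the packages DESeq and DESeq2, and FastQC with MultiQC. For the counting tool, its strand setting and the annotation, the sources used here give nothing. Of the 45 members 15 share exon bases with another gene of GENCODE M21 (12 on the opposite strand only), so some of their counts may belong to the partner.

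The filterByExpr function kept 20140 of 53278 symbols. After TMM scaling they were fitted in R 4.3.3 with edgeR 4.0.16 (glmQLFit and glmQLFTest, no covariates). P-values were adjusted by Benjamini and Hochberg's method across every gene in the fit, at a threshold of 0.05. The SE was derived from the F statistic, and 95% intervals from the t distribution. CPM use TMM-scaled library sizes, and levels per kilobase the union of exons. Alternatives used DESeq2 1.42.0, limma 3.58.1, other scalings and filters, a replicate block, striatal or oligodendrocyte scores as covariates and each mouse left out in turn. A block for at least 100 Hcrt counts was added after seeing the data.

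The fit was checked on simulated data. No replicate libraries were alike within sampling noise (chi-square per degree of freedom of at least 12.3). The members and lists were chosen with earlier results of these data known. Values in each mouse are given for members that passed, for those whose groups did not overlap at an unadjusted p under 0.05 and for the most abundant member of each role. From each further list the genes that passed, or else the 2 with the smallest p, are named. Rragd's values in each mouse are also given. 1 gene was left out of these lists and is not reported here.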

Additional observations from a re-analysis of the deposited data

Results flagged for a closer look

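Single mice stood far from the rest of their group for 6 of the 90 sets of 4 values (45 members in 2 groups), by Dixon's ratio at its 95% limit, which chance passes in about 1 in 20 sets. Control mouse 4 was lowest for Ctsd, at 186 CPM against 208 to 212 CPM, and for Cln3, at 15.2 CPM against 17.8 to 18.1 CPM. Depleted mouse 2 was highest for Grn, at 52.8 CPM against 46.8 to 47.6 CPM, and for Arsa, at 44.8 CPM against 38.4 to 39.3 CPM. Depleted mouse 1 was lowest for Ctsf, at 61.5 CPM against at least 67.3 CPM. Depleted mouse 3 was highest for Npc1, at 77.0 CPM against 66.4 to 67.8 CPM. Without depleted mouse 2 Ctsd passed in edgeR (adjusted p = 0.0429), and without control mouse 4 it did too (adjusted p = 0.0408).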

How the results depend on the processing

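The fall of Ctss kept its direction and its side of the threshold in all 18 alternatives. The number of members that fell, 4, was 1 with the replicate block, 2 with the striatal covariate, 7 with the oligodendrocyte covariate and 1 to 5 when single mice were left out (1 without control mouse 2, 2 without control mouse 3 or depleted mouse 1, 3 or 4). It was 4 to 6 in the other settings. No member rose in any of them. With the block the adjusted p was 0.0697 for Cd68, 0.0799 for Grn and 0.155 for Man2b1, and among other lysosomal genes 0.0813 for Slc11a1 and 0.0629 for Cd300a, at log2 fold changes of -3.22 and -1.94. The labels do not say whether equal replicate numbers pair the mice. Correlations of same-numbered mice ran from -0.22 to 0.37, and only number 3 correlated best with its own number. These correlations cannot settle a pairing, because tissue makeup also differed between the mice. The median log2 fold change of the members was -0.15 with the oligodendrocyte covariate. Among other lysosomal genes 1 rose with the oligodendrocyte covariate and 0 to 1 without single mice. Over all genes 346 were lower in DESeq2 (178 to 441 without single mice, against 223), and the higher ones (11) numbered 25 without a filter, 6 with 1 CPM in 4 samples, 4 with the block, 118 in DESeq2, 2 with the striatal and 156 with the oligodendrocyte covariate, and 2 to 243 without single mice. The cause of these shifts was not tested.

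No estimate that passed changed its sign, but 22 members close to their control level did in some setting, none of them past the threshold there. With library size alone Ctsl lay at -0.0010 and Tpp1 at -0.0036 on the log2 scale. With the oligodendrocyte covariate this held for Ctsl (-0.15), Lamp1 (-0.022), Gaa (-0.21), Glb1 (0.044), Naglu (-0.18), Tpp1 (-1.5e-04), Smpd1 (0.044), Ids (0.23), Mcoln1 (0.038) and Tfeb (-0.077). With the striatal covariate it held for Cd63 (0.070), Manba (6.9e-04), Gaa (-0.083), Glb1 (0.091), Naglu (-0.057), Tpp1 (-0.059), Neu1 (0.036), Smpd1 (0.092), Sgsh (0.11), Arsa (0.011) and Mcoln1 (0.0070). Leaving out single mice gave a range of -0.078 to 0.024 for Arsa, -0.064 to 0.15 for Arsb, -0.047 to 0.021 for Asah1, -0.16 to 0.025 for Cd63, -0.046 to 0.063 for Ctsl, -0.17 to 0.044 for Ctsz, -0.071 to 0.11 for Gaa, -0.0016 to 0.086 for Gla and -0.046 to 0.041 for Glb1. The range was -0.072 to 0.0034 for Gm2a, -0.12 to 0.036 for Ids, -0.056 to 0.0075 for Mcoln1, -0.047 to 0.067 for Naglu, -0.16 to 0.0031 for Npc2, -0.040 to 0.076 for Pld3, -0.15 to 0.015 for Sgsh, -0.028 to 0.032 for Smpd1 and -0.023 to 0.033 for Tpp1.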
